A study of Mus musculus with 30 samples.

Results

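Tumours of MC38OVA, a line of the mouse colon carcinoma MC38 that carries ovalbumin, were compared with tumours of parental MC38 by RNA-seq. The comparison used 6 of the 30 libraries of the series, 3 MC38OVA and 3 MC38, chosen by their labels. The other 24 libraries come from 8 further tumour lines. Ovalbumin is a chicken egg protein widely used as a model foreign antigen, and its own transcript was not analysed here. Mice were inoculated under the skin, and tumours of both groups were taken at 10 mm in length, minced and digested, with RNA made from the single cell suspensions. BALB/cJ and C57BL/6J hosts are named for the series, as is OK-432, a killed streptococcal preparation, put into tumours of some mice for 24 hours. Neither the host strain nor OK-432 is tied to a library in the labels, so the labels separate the groups by line name alone. Whether the ovalbumin line is 1 clone is not stated, nor whether the replicates are separate mice, so p-values measure only a spread between libraries.

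All 6 libraries are labelled as CD45+ tumour-infiltrating immune cells, but the extraction protocol describes no sorting step. Ptprc, the gene of CD45, was present in each library at 46.6 to 215 TPM, a share of transcripts scaled to the same total in each library. Transcripts of cells without CD45 were present as well. Shisal2b, on the list of transcripts seen in MC38-line libraries, had 411, 443 and 395 TPM in MC38OVA tumours, against 624, 596 and 461 TPM in MC38 tumours. The fibroblast matrix gene Dcn had 55.8 to 85.6 TPM in MC38OVA tumours and 75.4 to 159 TPM in MC38 tumours. The libraries are therefore described below as tumour libraries, and fewer cells of a type cannot be told apart from less RNA per cell.

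Leukocytes share a set of genes regardless of lineage, among them the phosphatase CD45, actin regulators and the transcription factor Ikaros. When a bulk tumour sample holds more leukocytes, all of these transcripts take a larger share of the RNA, and so do transcripts of each leukocyte type. A gene that differs by more than the shared set is one whose type of cell, or whose level within cells, differs beyond the common share. Antigen-presenting myeloid cells, which include monocytes, macrophages and dendritic cells, display peptides to T cells on MHC class II. Killer T cells read peptides on MHC class I.

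The depth of the libraries is unknown, because TPM keep no read counts. Between 13840 and 14602 genes reached 1 TPM in a library. Mitochondrial transcripts took 25.8%, 20.9% and 21.6% of TPM in MC38OVA libraries and 13.8%, 14.3% and 27.5% in MC38 libraries. Across genes, MC38OVA replicate 1 correlated more closely with an MC38 library (r = 0.988) than with either library of its own group (r = 0.985 at most). MC38 replicate 2 had the lowest leukocyte level of the 6 libraries. Results that rest on these libraries are given with and without them.

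The pan-leukocyte genes had higher mean values in MC38OVA tumours, 10 of 10 in direction, by a median log2 fold change of 1.10 (range 0.81 to 1.16), beside -0.058 over all 14413 genes tested. Ptprc had 87.5, 215 and 159 TPM in MC38OVA tumours, against 78.7, 46.6 and 83.0 TPM in MC38 tumours (chr1:138062861-138175708, minus strand, mm10). Cd53, a leukocyte tetraspanin, had 125, 280.1 and 191 TPM in MC38OVA tumours, against 115, 62.2 and 117 TPM in MC38 tumours. Laptm5, a lysosomal membrane protein of blood cells, had 165, 316 and 286 TPM in MC38OVA tumours, against 127, 81.3 and 135 TPM in MC38 tumours. In all 3 genes the groups did not overlap, and MC38OVA replicate 1 was the MC38OVA library closest to MC38.

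The test used was limma on log2(TPM + 1), and a gene was called where its Benjamini-Hochberg adjusted p was below 0.05 and its log2 fold change was 1 or more, up or down. It was run on the 6 libraries, where it took 1 common spread for genes of like level, and on all 30 libraries, where each gene kept more of its own spread. In the 30-library fit the spread was pooled over all 10 lines, with 20 residual degrees of freedom, against 4 in the 6-library fit. Its SE and p-values therefore rest largely on the spread within other tumour lines, not on that of MC38OVA and MC38 alone. "Rose" and "fell" are used here only of genes called in both. Arhgdib, an inhibitor of nucleotide exchange on small GTPases, was the only pan-leukocyte gene that rose, by a log2 fold change of 1.11 ± 0.28 (SE, 30-library limma fit, adjusted p = 0.0263). Ptprc differed by 1.09 ± 0.42 (adjusted p = 0.194 in the 30-library limma fit and 0.00042 in the 6-library fit). Cd53 differed by 0.99 ± 0.38 (adjusted p = 0.199) and Laptm5 by 1.13 ± 0.35 (adjusted p = 0.074) in the 30-library limma fit.

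The mean log2(TPM + 1) of the 10 genes is called the leukocyte score. It was 6.47, 7.62 and 7.27 in MC38OVA libraries, against 6.28, 5.56 and 6.33 in MC38 libraries. The difference of 1.06 between group means was 0.81 without MC38OVA replicate 2, 0.82 without MC38 replicate 2 and 1.39 without MC38OVA replicate 1.

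**Figure D1:**
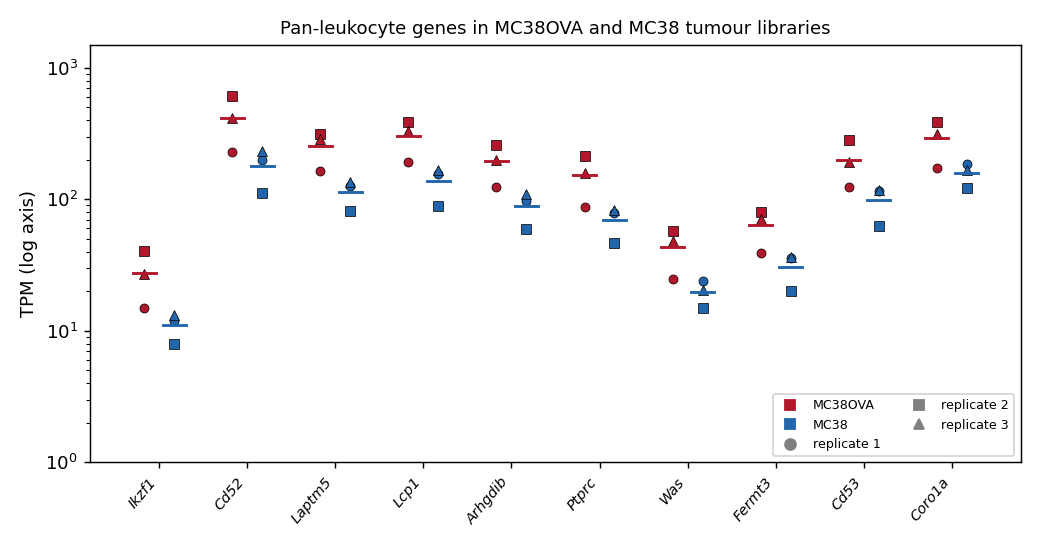
TPM (log axis) of the 10 pan-leukocyte genes in 3 MC38OVA and 3 MC38 libraries, with a marker for each replicate and a line at the group mean. MC38OVA replicate 1 lies next to the MC38 libraries in each gene, as for Ptprc at 87.5 TPM beside 83.0 TPM in MC38 replicate 3.

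Over all genes, 415 were called higher (2.88%) and 69 lower (0.479%) in MC38OVA tumours in the 6-library fit. In the 30-library fit, 244 rose (1.69%) and 32 fell (0.222%), and each of these was also called in the 6-library fit. The groups did not overlap in 237 of the 244 and in 29 of the 32. Over all genes tested, the groups did not overlap in 8.91% with MC38OVA higher and in 3.86% with MC38OVA lower. On the 6 libraries alone, 0 genes were called higher with median-ratio scaling, with no filter on low genes or with each gene's own spread in limma, and the 30-library fit gave 172, 144 and 122 under the same settings. Single libraries decide much of both counts. The number called higher in the 30-library fit was 6 without MC38 replicate 2, 18 without MC38OVA replicate 2, 22 without MC38OVA replicate 3 and 574 without MC38OVA replicate 1. The number called lower in that fit ran from 8 without MC38 replicate 2 to 49 without MC38 replicate 3, against 32 with all libraries.

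The 15 rises described next are the largest of those called in both fits, leaving out predicted genes and receptor segments, and were chosen after their values were seen. Of the 15, Ccr2 and Vcan are on the monocyte list and 0 are on the macrophage list. Lyz2, the lysozyme of macrophages and neutrophils, had 621, 1645 and 1513 TPM in MC38OVA tumours, against 346, 172 and 363 TPM in MC38 tumours (chr10:117277331-117282321, minus strand). It rose by a log2 fold change of 2.05 ± 0.41 (SE, 30-library limma fit, adjusted p = 0.00806). Every MC38OVA library was above every MC38 library. Vcan, a matrix proteoglycan made by classical monocytes, had 7.55, 35.3 and 24.6 TPM in MC38OVA tumours, against 5.68, 3.32 and 6.23 TPM in MC38 tumours, and rose by 1.75 ± 0.36 (limma adjusted p = 0.00899). Ccr2, the chemokine receptor that brings monocytes out of the bone marrow, had 51.8, 236 and 137 TPM in MC38OVA tumours, against 40.6, 17.2 and 54.2 TPM in MC38 tumours. It rose by 1.79 ± 0.48 (limma adjusted p = 0.0404) although MC38OVA replicate 1 lay below MC38 replicate 3.

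Scavenger and uptake genes were among the same 15. Cd36, a scavenger receptor for lipids, had 27.5, 15.2 and 35 TPM in MC38OVA tumours, against 3.97, 3.79 and 11.1 TPM in MC38 tumours, a rise of 1.95 ± 0.40 (limma adjusted p = 0.00884). Unlike the other 14, it was lowest in MC38OVA replicate 2 and not in replicate 1. Msr1, the class A scavenger receptor of macrophages, had 54.3, 125 and 106 TPM in MC38OVA tumours, against 37.9, 14.4 and 40.8 TPM in MC38 tumours, and rose by 1.63 ± 0.38 (limma adjusted p = 0.0184). Trf, the iron carrier transferrin, had 14.3, 30 and 37.5 TPM in MC38OVA tumours, against 6.91, 3.27 and 9.83 TPM in MC38 tumours. It rose by 1.88 ± 0.36 (limma adjusted p = 0.00572). Thbs1, the matrix glycoprotein thrombospondin 1, had 145, 262 and 354 TPM in MC38OVA tumours, against 83.3, 46.9 and 87.6 TPM in MC38 tumours (chr2:118111876-118127133, plus strand). It rose by 1.75 ± 0.44 (limma adjusted p = 0.0263), with no overlap between groups.

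Sensing and oxidase genes rose too. Tlr9, the endosomal receptor for unmethylated DNA, had 24.5, 63.9 and 54.9 TPM in MC38OVA tumours, against 18.3, 6.91 and 16 TPM in MC38 tumours, and rose by 1.72 ± 0.41 (limma adjusted p = 0.0203). Cybb, the catalytic subunit of the phagocyte NADPH oxidase, had 63.1, 146 and 133 TPM in MC38OVA tumours, against 42.5, 21.2 and 41.6 TPM in MC38 tumours, and rose by 1.65 ± 0.41 (limma adjusted p = 0.0263). Both genes had every MC38OVA library above every MC38 library. Sirpb1c, an activating receptor of the SIRP family, rose by 1.68 ± 0.38 (limma adjusted p = 0.015). Ms4a4a and Ms4a6d, membrane proteins of myeloid cells, rose by 1.71 ± 0.42 and 1.6 ± 0.40 (limma adjusted p = 0.0224 and 0.0256). The last 3 of the 15 were Rassf4 (1.66), Pid1 (1.64) and the interferon-inducible Slfn5 (1.59). In all 15 genes MC38 replicate 2 was the lowest of the 3 MC38 libraries, and 14 of the 15 did not overlap between groups. Without MC38 replicate 2, or without MC38OVA replicate 3, 0 of the 15 were called in the 30-library limma fit, and without MC38OVA replicate 2, only 1.

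**Figure D2:**
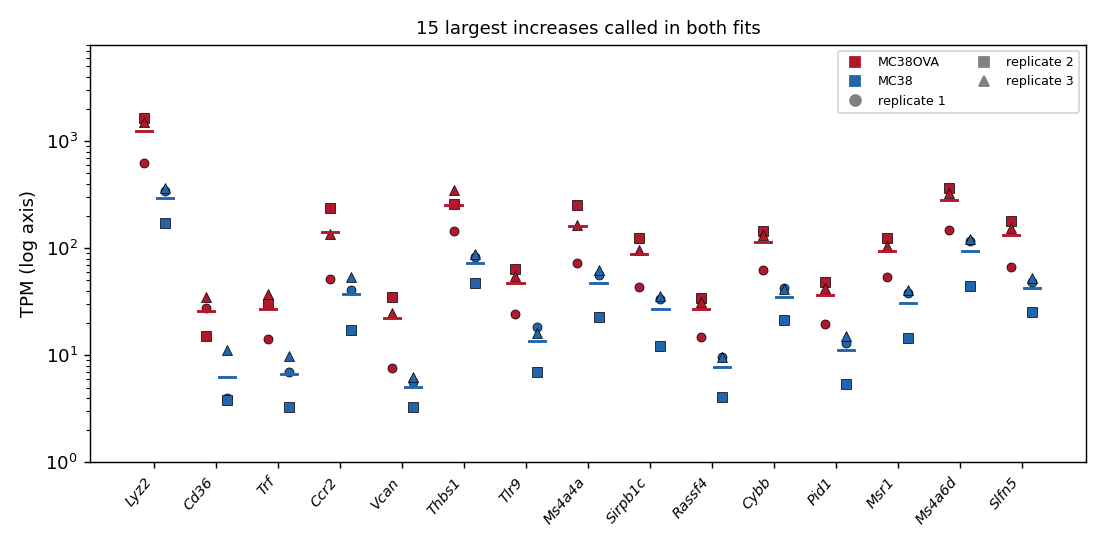
TPM (log axis) of the 15 genes with the largest increases called in both fits, in 3 MC38OVA and 3 MC38 libraries, with group means as lines. Lyz2 has the highest levels, 621 to 1645 TPM in MC38OVA tumours against 172 to 363 TPM in MC38 tumours, and MC38 replicate 2 is the lowest MC38 library in every gene.

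Families of myeloid genes, gathered after the values were seen, are described by their counts. Over all genes 1.69% rose, but families gathered in this way are not read against that share. Of 10 tested MS4A genes 5 rose, with a median log2 fold change of 1.41. All 4 SIRP genes tested rose, by 1.37 (Sirpa, the inhibitory receptor for CD47) to 1.68. Of 11 tested Toll-like receptors 5 rose (Tlr1, Tlr5, Tlr7, Tlr9 and Tlr13) and all 11 had positive differences, down to 0.32 for Tlr3. Of 7 tested C-type lectins of the Clec4 group 4 rose, and 3 of the 5 NADPH oxidase subunits rose, Cybb and Ncf1 among them. Of 13 tested matrix metalloproteinases 4 rose: Mmp8, Mmp12, Mmp13 and Mmp25. Mmp2, a gelatinase, had 41.2, 27.7 and 33.7 TPM in MC38OVA tumours, against 58.4, 103 and 36.3 TPM in MC38 tumours, and was not called. Several of these families hold near-identical copies, so reads may be shared among members.

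The fixed lists, 340 of whose genes were tested, are ordered here by cell type. Their counts stand beside 1.69% of all genes that rose. Of 10 monocyte genes 2 rose (Ccr2 and Vcan), with a list median of 1.37. Of 13 macrophage genes 3 rose, Csf1r and Apoe among them, with a median of 1.17. Csf1r, the receptor for macrophage colony-stimulating factor, had 53.8, 135 and 137 TPM in MC38OVA tumours, against 38.4, 20.5 and 47.3 TPM in MC38 tumours, and rose by 1.55 ± 0.39 (limma adjusted p = 0.0273). Apoe, a lipid carrier abundant in macrophages, had 456, 662 and 1150.2 TPM in MC38OVA tumours, against 306, 152 and 297 TPM in MC38 tumours, and rose by 1.55 ± 0.37 (limma adjusted p = 0.0215). Arg1, the arginase of suppressive macrophages, had 115, 49.2 and 177 TPM in MC38OVA tumours, against 24.9, 14.5 and 69.2 TPM in MC38 tumours, and was not called in the 30-library limma fit (1.73 ± 0.53, adjusted p = 0.0748).

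On each of the remaining myeloid lists few genes or none were called, beside 1.69% of all genes that rose, so that a count of 0 or 1 is no result about a list of this length. Of 11 neutrophil genes 1 rose, the collagenase Mmp8 (1.08 ± 0.29, limma adjusted p = 0.0378), and the list median was 0.33. Of 15 chemokines 2 rose, Ccl9 (1.56) and Ccl6 (1.41), both made by myeloid cells. Of 14 myeloid suppressive mediators 3 rose, all of them oxidase subunits. None of 8 conventional dendritic cell genes, 8 mature dendritic cell genes or 6 plasmacytoid dendritic cell genes was called in both fits, and their medians were 0.48, 0.13 and 0.41.

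Of 71 genes tested on 9 lists of T, B, plasma and NK cells, 1 rose and 0 fell, a share near the 1.69% of all genes that rose. T cell receptor segments are on no list and were gathered after the values were seen. Of 258 segments 41 were tested and 3 rose, beside 1.69% of all genes. With no overlap, 11 of the 41 were higher in MC38OVA tumours, beside 8.91% of all genes, and 1 was lower. Their differences were positive in 33 and negative in 8, down to -1.6. Trbv31, a variable segment of the receptor beta chain, had 1.68, 5.21 and 4.41 TPM in MC38OVA tumours, against 0, 0 and 0.616 TPM in MC38 tumours, and rose by 1.93 ± 0.30 (limma adjusted p = 0.00121). Trbv12-1 rose by 1.57 ± 0.22 and Trav14-2 by 1.05 ± 0.13, and of 3 tested immunoglobulin segments Ighj2 rose by 1.57 ± 0.39 (limma adjusted p = 0.0263). All of these segments were at low levels. Trbv31 passed the filter of 1 TPM in 3 libraries through MC38OVA alone, so its direction is partly set by the filter. Cd8a, of the killer T cell coreceptor, had 16.7, 14.8 and 22.6 TPM in MC38OVA tumours, against 17.5, 12.2 and 17.6 TPM in MC38 tumours. Its groups overlapped and its difference was 0.18 ± 0.44 (limma adjusted p = 0.941). Ifng, the cytokine interferon gamma, had 10.0, 8.92 and 9.37 TPM in MC38OVA tumours, against 4.48, 2.30 and 6.29 TPM in MC38 tumours. Its groups did not overlap, but it was not called in the 30-library limma fit (1.03 ± 0.40, adjusted p = 0.198).

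The list medians were 0.31 for T cells, 0.18 for CD8 T cells and cytotoxicity, 0.33 for T cell exhaustion, 0.49 for regulatory T cells and 0.60 for NK cells. Gzmb, the main granzyme of killer lymphocytes, had 201, 319 and 232 TPM in MC38OVA tumours, against 256, 186 and 295 TPM in MC38 tumours. Prf1, the pore-forming perforin, had 81.8, 95.3 and 78.2 TPM in MC38OVA tumours, against 82.2, 82.7 and 102 TPM in MC38 tumours. The groups overlapped in both genes. Gzmf, a granzyme of activated killer cells, had 219.9, 37.3 and 126 TPM in MC38OVA tumours, against 153, 295 and 273 TPM in MC38 tumours, with overlap (-1.18 ± 0.64, limma adjusted p = 0.508).

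None of 18 type I interferon response genes, 18 interferon-gamma response genes or 17 MHC class I genes was called in both fits, and their medians were 0.25, 0.39 and 0.24. At a share of 1.69% over all genes, a count of 0 is no result about lists of this length. In the 6-library fit 2, 3 and 1 of them were called higher, and 5, 9 and 7 were higher in MC38OVA tumours with no overlap, beside 8.91% of all genes. H2-K1, a classical class I heavy chain, had 3967, 3447 and 3565 TPM in MC38OVA tumours, against 3801, 3767 and 2875 TPM in MC38 tumours (0.08 ± 0.34, limma adjusted p = 0.97). B2m, the light chain, had 4705, 5568 and 5249 TPM in MC38OVA tumours, against 4819.6, 4609 and 3776 TPM in MC38 tumours (0.24 ± 0.25, limma adjusted p = 0.831). Cxcl10, an interferon-induced chemokine, had 995, 892 and 939.5 TPM in MC38OVA tumours, against 990.4, 866 and 708 TPM in MC38 tumours, with overlap. Cxcl9, which interferon gamma induces, had 45.8, 51.2 and 40.0 TPM in MC38OVA tumours, against 26.3, 17.2 and 22.1 TPM in MC38 tumours, with no overlap (1.04 ± 0.56, limma adjusted p = 0.503).

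**Figure D3:**
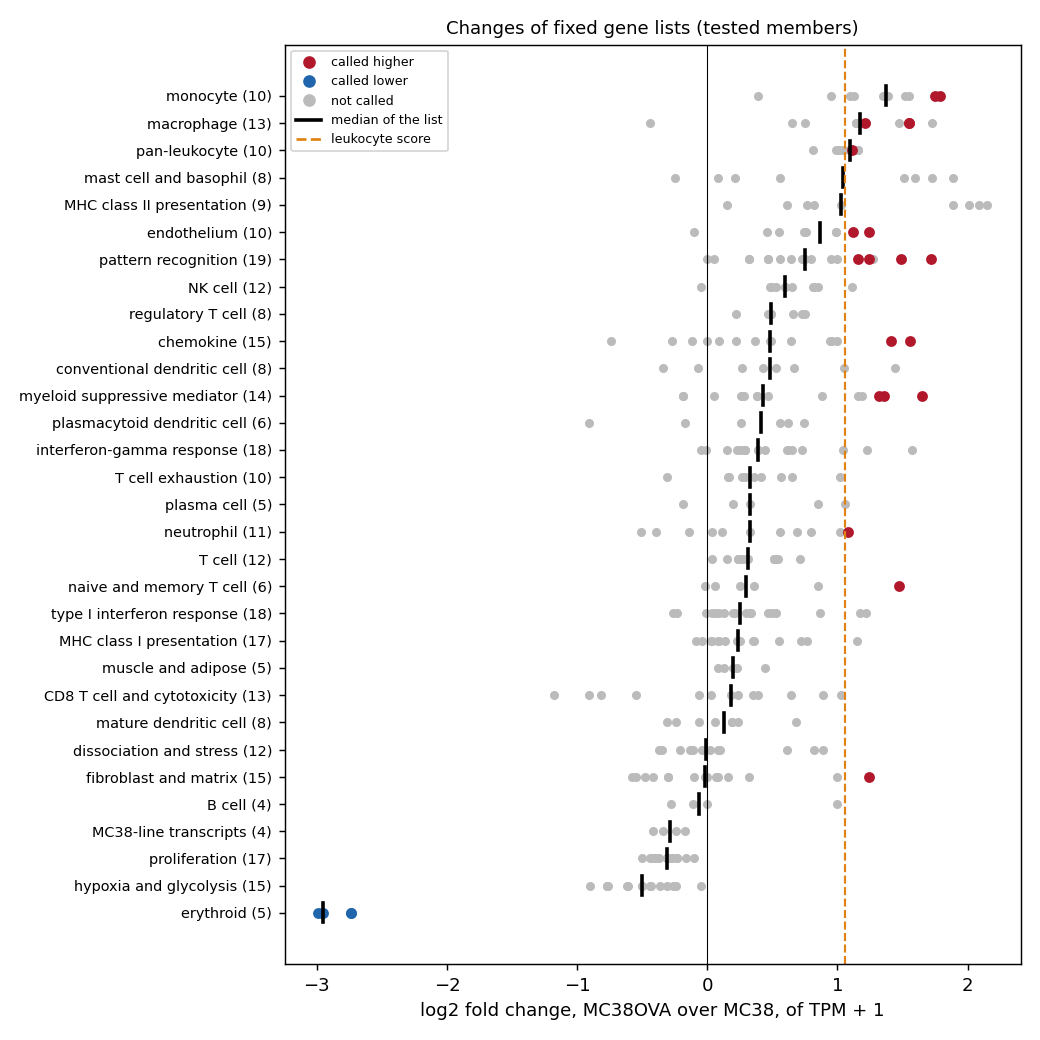
Log2 fold change of TPM + 1, MC38OVA over MC38, for each tested member of the fixed lists with at least 4 tested members, whose number is in brackets, with the list median as a black bar and the leukocyte score's difference of 1.06 as a dashed line. Monocyte (1.37), macrophage (1.17) and pan-leukocyte (1.10) medians lie to the right of the line, T cell (0.31) and CD8 (0.18) medians to its left, and the erythroid median at -2.95.

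Changes beyond the leukocyte score were tested by subtracting each library's score from its log2 values. In this measure 0 genes were called higher (0%) in either limma fit, and 2 genes in the 6-library fit and 3 in the 30-library fit had an unadjusted p under 0.05 in that direction. The smallest adjusted p of a gene above the score was 0.055 in the 6-library fit. In the 30-library fit it was 0.039 for Lyz2, whose relative difference of 0.99 missed the fold threshold. The median SE of the relative difference in the 6-library fit was 0.52, against 0.258 for the plain difference. That fit shared 1 spread among genes of like level, so these SE are not each gene's own. Ptprc, at relative levels of 0 to 0.13 in MC38OVA and 0.01 to 0.06 in MC38 libraries, was given 0.52 too. With each gene's own spread, 0 genes were called higher in either fit. A count of 0 says that none passed at these settings, not that none exceeded the leukocyte genes.

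Of the 244 genes that rose, 212 had a difference above that of the leukocyte score, but a rise required a log2 fold change of at least 1 and the score differed by 1.06, so nothing is read from this count. In 63 of these 244 the libraries did not overlap after subtraction. Over all genes, the share with no overlap and MC38OVA higher after subtraction was 0.548%, or 79 genes. Of the 15 largest rises, 13 did not overlap after subtraction, and the relative differences of the 15 ran from 0.52 (Slfn5) to 0.99 (Lyz2). The 244 and the 15 were picked for their rise in these same libraries. Their counts with no overlap are therefore not read against the share over all genes. The relative level of Lyz2 was 2.81, 3.06 and 3.30 in MC38OVA libraries, against 2.16, 1.87 and 2.18 in MC38 libraries, on the log2 scale. MC38OVA replicate 1, which lay nearest to MC38 in most plain levels, was also above all MC38 libraries in this relative level. Leaving out 1 library at a time moved the relative difference of Lyz2 between 0.87 and 1.11.

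Of 9 genes on the MHC class II list, 4 were above the leukocyte score, and the list's median relative difference was -0.04. All 4 had no overlap after subtraction, beside 0.548% of all genes. H2-DMb2 was lower with no overlap after subtraction, and the other 4 overlapped. The 4 are described next, chosen after their values were seen. H2-Eb1, the class II E beta chain, had 145, 364 and 220.2 TPM in MC38OVA tumours, against 58.8, 20.7 and 102 TPM in MC38 tumours (chr17:34305867-34316674, plus strand). Every MC38OVA library was above every MC38 library. H2-Ab1 and H2-Aa, the A chains, had 247, 587 and 412 TPM and 249, 623 and 387 TPM in MC38OVA tumours, against 102, 41.8 and 177 TPM and 107, 43.8 and 193 TPM in MC38 tumours. Cd74, the invariant chain that guards the class II groove, had 473, 1056 and 664 TPM in MC38OVA tumours, against 209, 94.5 and 323 TPM in MC38 tumours. These 4 genes kept the same order of libraries, with MC38 replicate 2 lowest and MC38OVA replicate 2 highest.

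The log2 fold changes were 2.15 ± 0.68 for H2-Eb1, 2.09 ± 0.67 for H2-Ab1, 2.01 ± 0.69 for H2-Aa and 1.89 ± 0.68 for Cd74. They were called in the 6-library limma fit (adjusted p = 2.5e-15 for H2-Eb1) and not in the 30-library fit (adjusted p = 0.0837, 0.0908, 0.128 and 0.153 in the same order). Ciita, the coactivator of class II genes, had 5.79, 13.3 and 9.36 TPM in MC38OVA tumours, against 2.26, 1.27 and 4.21 TPM in MC38 tumours, and was also called in the 6-library fit alone (1.57 ± 0.50, limma adjusted p = 0.0841 in the 30-library fit). Relative to the leukocyte score, H2-Eb1 differed by 1.09 and H2-Ab1 by 1.03, with no overlap in any of the 5 genes. Without MC38 replicate 2 these became 0.72 and 0.72. On the MHC class II list of 9 genes, 9 were higher in mean and 0 were called in both fits. H2-Oa, of the peptide-loading inhibitor H2-O, differed by 0.15, with overlap.

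Promoter sequences of the class II genes are shown because the genes moved together and share a known promoter layout, in which an inverted CCAAT element lies close to the start of transcription. RefSeq windows (GRCm38.p6) of 300 bases, 250 before the start and 50 from it on, are given for 2 of the 4 genes, H2-Eb1 at chr17:34305617-34305916 on the plus strand and H2-Aa at chr17:34287774-34288073 on the minus strand. H2-Ab1 had no window in the source used, and Cd74 was left out, so whether these promoters hold the motif is not shown. Capitals mark the letters TGATTGG, searched for on both strands (CCAATCA on the other).
H2-Eb1: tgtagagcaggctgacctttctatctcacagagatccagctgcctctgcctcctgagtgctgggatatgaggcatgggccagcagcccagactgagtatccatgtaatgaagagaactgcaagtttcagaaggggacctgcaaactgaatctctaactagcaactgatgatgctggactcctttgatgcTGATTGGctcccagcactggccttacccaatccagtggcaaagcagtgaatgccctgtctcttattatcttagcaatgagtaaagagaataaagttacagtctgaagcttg
H2-Aa: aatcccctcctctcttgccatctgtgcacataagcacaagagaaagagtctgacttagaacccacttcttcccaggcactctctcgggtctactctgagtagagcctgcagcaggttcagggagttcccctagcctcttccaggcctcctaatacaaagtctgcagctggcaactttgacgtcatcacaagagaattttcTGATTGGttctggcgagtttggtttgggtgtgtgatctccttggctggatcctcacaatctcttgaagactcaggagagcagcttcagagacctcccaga
The match begins 61 bases before the start in H2-Eb1 and 50 bases before it in H2-Aa, on the gene's own strand in both. The motif was present on either strand in 2559 of 32817 promoters of the same length (7.8%), so a match is a description of the sequence and not a binding site.

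**Figure D4:**
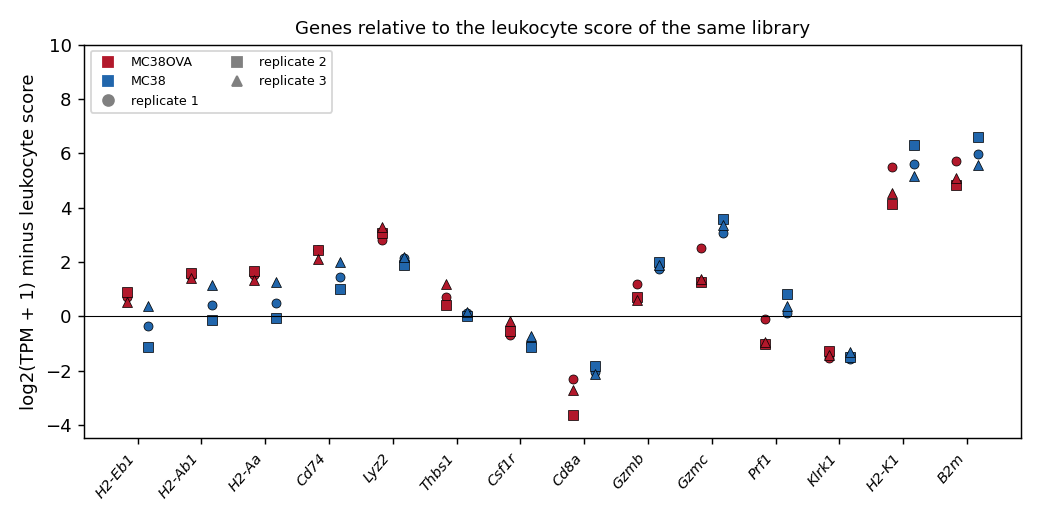
Log2(TPM + 1) minus the leukocyte score of the same library for 14 genes chosen after their values were seen, in 3 MC38OVA and 3 MC38 libraries. H2-Eb1, H2-Ab1, H2-Aa, Cd74, Lyz2 and Csf1r are above in every MC38OVA library, while Cd8a, Gzmb, Gzmc and Prf1 are below in every MC38OVA library. Over all genes, 0.548% are above and 44.7% below with no overlap in this measure.

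On the list of mast cell and basophil genes, 4 of 8 were above the leukocyte score, and the median relative difference was -0.03. After subtraction 2 of 8 were higher with no overlap, beside 0.548% of all genes. The 2 genes were Cma1 and Cpa3, both at low levels, and Cpa3 passed the filter of 1 TPM in 3 libraries through MC38OVA alone. Cma1, a mast cell chymase, had 3.22, 9.83 and 5.96 TPM in MC38OVA tumours, against 0.506, 0.339 and 2.09 TPM in MC38 tumours. Cpa3, a mast cell carboxypeptidase, had 1.86, 6.26 and 3.62 TPM in MC38OVA tumours, against 0.373, 0.303 and 0.919 TPM in MC38 tumours. The mast cell proteases Mcpt4 and Tpsb2 overlapped after subtraction, and 1 gene of the list was lower with no overlap. Of the 8 genes, 4 were called higher in the 6-library fit, beside 2.88% of all genes, and 0 in both fits. The median plain difference was 1.04.

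In the other direction, 126 genes were called lower relative to the score in the 6-library limma fit (0.874%), 9456 in the 30-library fit (65.6%) and 124 in both (0.86%). The score is subtracted from every gene, and the median relative difference over all genes was -1.12. Cd8a, Gzmb and Prf1 were below in each MC38OVA library relative to the score, with relative differences of -0.88, -1.04 and -1.12, and were not called in the 6-library fit. Over all genes, 44.7% were below with no overlap in this measure. Among list genes called lower in both fits in this relative measure were Gzmf (-2.24) and Gzme (-1.97), and the hypoxia genes Ankrd37 (-1.96) and Car9 (-1.84). After subtraction the groups still overlapped in Gzmf, Gzme and Car9, and with the score as a covariate their differences turned to 0.45, 0.12 and 0.70.

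Stromal and tumour lists were mixed. Of 10 endothelial genes 2 rose, beside 1.69% of all genes, and the list median was 0.87. In 8 of 10 MC38OVA was higher with no overlap, beside 8.91% of all genes. Tie1, among these 8, passed the filter of 1 TPM in 3 libraries through MC38OVA alone. Plvap, of the diaphragms of endothelial openings, had 9.65, 9.43 and 15.6 TPM in MC38OVA tumours, against 4.19, 3.84 and 4.58 TPM in MC38 tumours, and rose by 1.24 ± 0.25 (limma adjusted p = 0.00874). Kdr, the VEGF receptor, had 7.09, 11.6 and 11 TPM in MC38OVA tumours, against 4.71, 2.47 and 5.03 TPM in MC38 tumours, and rose by 1.12 ± 0.27 (limma adjusted p = 0.0203). The endothelial level did not follow the leukocyte score within MC38OVA tumours: its list score was 2.89, 2.82 and 3.26 in MC38OVA libraries, against 2.20, 2.15 and 2.27 in MC38 libraries.

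Of 15 fibroblast and matrix genes 1 rose, the smooth muscle actin Acta2 (1.24 ± 0.28, limma adjusted p = 0.015), and the list median was -0.02. Serpinf1, the secreted factor PEDF, had 44.3, 25.6 and 59.0 TPM in MC38OVA tumours, against 100.4, 114 and 74.4 TPM in MC38 tumours, and fell by 1.2 on the log2 scale (limma adjusted p = 0.0341). Grem1, a BMP antagonist, had 45.2, 19.8 and 28.9 TPM in MC38OVA tumours, against 65.1, 78.0 and 43.6 TPM in MC38 tumours, and fell by 1.01 although the groups overlapped (limma adjusted p = 0.0335).

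Of 17 proliferation genes 0 were called, and all 17 had lower means, with a median of -0.31. The cell cycle kinase Cdk1 had 38.5, 40.6 and 41.5 TPM in MC38OVA tumours, against 61.5, 62.9 and 40.7 TPM in MC38 tumours, so that MC38 replicate 3 lay with the MC38OVA libraries. All 15 hypoxia and glycolysis genes had lower means, with a median of -0.50, and 0 were called. Bnip3, a mitophagy receptor induced in hypoxia, had 121, 69.8 and 122 TPM in MC38OVA tumours, against 179, 214 and 133 TPM in MC38 tumours. The 4 MC38-line transcripts differed by -0.42 to -0.17, and none was called.

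Red cell genes and small structural RNAs held the largest falls, and their order depended on MC38 replicate 3. Of the 15 largest decreases called in the 6-library fit, 11 were also called in the 30-library limma fit. That number was 1 without MC38 replicate 2, 2 without MC38OVA replicate 2 and 3 without MC38OVA replicate 3. It was 4 to 9 when any other single library was left out. All 5 tested erythroid genes fell, beside 0.222% of all genes, with a median log2 fold change of -2.95. Hbb-bs, an adult beta globin, had 731, 460.4 and 428 TPM in MC38OVA tumours, against 2156, 2471 and 12537 TPM in MC38 tumours (chr7:103826534-103828096, minus strand). Alas2, which starts haem synthesis in red cell precursors, had 14.7, 8.23 and 7.65 TPM in MC38OVA tumours, against 40.1, 49.8 and 304 TPM in MC38 tumours (chrX:150547375-150570638, plus strand). MC38 replicate 3 was far above the other MC38 libraries, and the groups did not overlap.

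Hbb-bs fell by 2.95 (SE 0.74, 30-library limma fit, adjusted p = 0.0267) and Alas2 by 2.99 (SE 0.69, adjusted p = 0.0177) on the log2 scale. Without MC38 replicate 3 these differences were -2.14 and -2.08, and those of the 5 genes ran from -2.14 to -1.90. Bpgm, the red cell enzyme that sets haemoglobin's oxygen affinity, fell by 1.39. Haemoglobin transcripts took 0.222%, 0.153% and 0.143% of TPM in MC38OVA libraries, against 0.648%, 0.705% and 3.86% in MC38 libraries. The near-identical Hba-a1 and Hba-a2 may share reads, so their separate levels are uncertain.

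**Figure D5:**
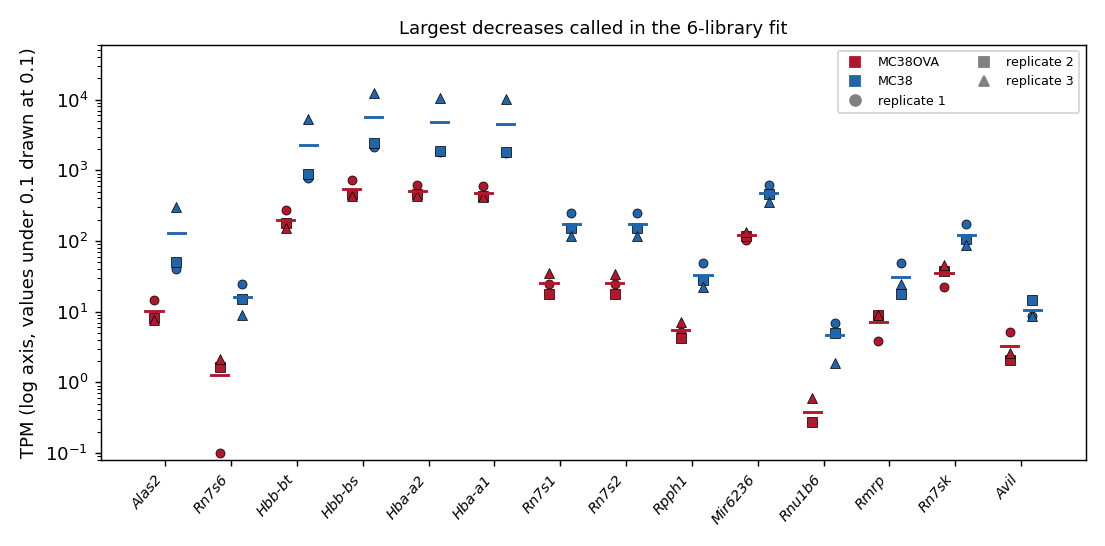
TPM (log axis, values under 0.1 drawn at 0.1) of 14 of the 15 genes with the largest decreases called in the 6-library fit, in 3 MC38OVA and 3 MC38 libraries, with group means as lines. Red cell genes are highest in MC38 replicate 3 (Hbb-bs 12537 TPM), whereas the small structural RNAs are highest in MC38 replicate 1 (Rpph1 48.0 TPM).

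A second set of falls was in RNAs that mostly lack a poly(A) tail, while the libraries were made with a kit for mRNA. Of 12 tested small structural RNAs, gathered after the values were seen, 6 fell, beside 0.222% of all genes. In 11 MC38OVA was lower with no overlap, beside 3.86% of all genes. Some of them, such as Rnu1b6, passed the filter of 1 TPM in 3 libraries through MC38 alone. Rn7s6, a 7S RNA, had 0, 1.62 and 2.15 TPM in MC38OVA tumours, against 24.7, 15 and 8.87 TPM in MC38 tumours, and fell by 2.98 (SE 0.77, limma adjusted p = 0.0294). Without MC38 replicate 3 its difference was -3.33, larger than that of any red cell gene. Rpph1, the RNA of ribonuclease P, had 5.11, 4.23 and 7.08 TPM in MC38OVA tumours, against 48.0, 27.8 and 22 TPM in MC38 tumours, and fell by 2.33 (SE 0.47, limma adjusted p = 0.00811; chr14:50807449-50807767, minus strand). Rn7s2, a 7SL RNA of the signal recognition particle, had 25.0, 17.7 and 34.5 TPM in MC38OVA tumours, against 245, 150.2 and 118 TPM in MC38 tumours, and fell by 2.67 (limma adjusted p = 0.0498). Its near copy Rn7s1 missed the threshold at 0.0503, and the pair may share reads.

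Replication-dependent histone genes, whose mRNAs also end without a poly(A) tail, had lower means in 33 of 33 tested, with a median of -0.81. The 33 are those of 57 that passed the filter of 1 TPM in 3 libraries. Some, such as H4c3 and H4c6, passed it through MC38 libraries alone, so direction and overlap are partly set by the filter. Of the 33, 5 fell (H1f1, H2bc15, H3c2, H4c3 and H4c6), beside 0.222% of all genes. In 25 MC38OVA was lower with no overlap, beside 3.86% of all genes. H4c6 had 0.891, 0.339 and 0.417 TPM in MC38OVA tumours, against 2.79, 2.37 and 2.79 TPM in MC38 tumours. The summed level of 6 structural RNAs (7SL, 7SK, ribonuclease P and ribonuclease MRP) was 80.9, 87.1 and 133 TPM in MC38OVA libraries, against 786, 467 and 379 TPM in MC38 libraries. The part of this difference in the other results was not tested.

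Avil, an actin-bundling protein of the villin family, had 5.13, 2.05 and 2.57 TPM in MC38OVA tumours, against 8.72, 14.6 and 8.56 TPM in MC38 tumours, and fell by 1.48 (SE 0.23, limma adjusted p = 0.00115).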

How the data were processed

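The deposited values are TPM per gene symbol, made by the authors. Per the submitters' processing notes, Trim Galore 0.6.5, STAR 2.7.3a, StringTie 2.1.2 and mm10 were used. The annotation, the strand setting and any filter are not given in the sources used here. Each of the 30 columns matched 1 sample title, and 0 value columns were left over. The members, lists, families and tests were chosen with earlier results of these data known.

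Genes with at least 1 TPM in 3 or more of the 6 libraries were kept (14413 of 55291) and analysed as log2(TPM + 1), which understates changes of low genes. The planned test was limma 3.58.1 (R 4.3.3) with a variance trend on the 6 libraries, plain and after subtracting the leukocyte score. There limma estimated an infinite prior, so genes of like level shared 1 spread, and genes with inconsistent replicates could be called. After this was seen, and after robust, gene-wise and covariate versions had also been looked at, words of rise or fall were tied to calls that also passed in a fit of all 30 libraries, which had been listed as an alternative (prior of 7.89 degrees of freedom). In the relative measure the prior of the 30-library fit was 28, against 20 residual degrees of freedom. The difference between the MC38OVA and CT26NYESO1 pairs was fitted on 12 libraries. Lists got no test of their own.

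Genes named by rule were the 15 largest rises relative to the score among called genes (there were 0), the 15 largest decreases called in the 6-library fit, up to 4 members per list by size of change, and Ptprc, Cd53, Laptm5, H2-K1, B2m and Cd8a. Other named genes were chosen after their values were seen. Not every gene the rule takes is described in words, and a few genes are not reported here. The procedure was run on simulated data with independent noise in each gene. The simulation held no shifts shared by the genes of a single library, so it does not bear on calls that depend on single libraries. Replicate numbers did not pair the samples. Alternatives were another pseudocount (0.1), no filter, median-ratio scaling, rescaling without mitochondrial and haemoglobin genes, no fold threshold, a replicate block, each library left out, a score of 3 genes, the score as a covariate and, added after seeing the data, gene-wise and robust spreads. Coordinates are from GENCODE M21, promoters from RefSeq (GRCm38.p6). Figures were drawn with matplotlib 3.10.9 in Python 3.11.15.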

Additional observations from a re-analysis of the deposited data

Results flagged for a closer look

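CT26NYESO1 and CT26 tumours, another line with a foreign antigen (NY-ESO-1) and its parent, gave the same kind of contrast. The difference between the changes of the 2 pairs, MC38 pair minus CT26 pair, was tested with limma on 12 libraries for 15648 genes, of which 658 passed an adjusted p of 0.05. Among 30 genes (the 15 largest rises and 15 largest decreases) 12 passed, and 4 of these also passed in the 30-library fit (Trf, Thbs1, Ms4a4a and Pid1). The 30 genes were picked for their change in the MC38 pair, which is part of the difference tested, so nothing is read from the share that passed.

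The largest such difference among the rises was in Thbs1. It averaged 253 TPM in MC38OVA and 72.6 TPM in MC38 tumours, and 7.41 TPM in CT26NYESO1 and 21.4 TPM in CT26 tumours, so the changes of 1.75 and -1.32 differed by 3.07 ± 0.45 (SE, limma adjusted p = 0.00054). For Trf the pair changes of 1.88 and -0.32 differed by 2.20 (limma adjusted p = 0.023). The differences were 2.34 for Ms4a4a, 1.99 for Tlr9, 1.78 for Sirpb1c, 1.72 for Pid1 and 1.67 for Cybb, with limma adjusted p from 0.024 to 0.049. In these 5 genes the CT26 pair changed by -0.63 to -0.02. Tlr9 was low there, at means of 1.72 TPM in CT26NYESO1 and 2.26 TPM in CT26 tumours, where log2(TPM + 1) understates changes. The leukocyte score was not subtracted in this comparison, so differences between pairs in leukocyte share are not set apart.

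The red cell genes differed in the opposite sense. The difference between pairs was -3.08 for Hbb-bt, -3.06 for Hbb-bs, -2.98 for Alas2 and -2.89 for each of Hba-a1 and Hba-a2 (limma adjusted p from 0.016 to 0.028), with changes of -0.01 to 0.16 in the CT26 pair. These 5 did not pass in the 30-library fit (adjusted p 0.098 to 0.16), and MC38 replicate 3 sets much of their size. The explanation of these differences was not tested.

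Some of the other decreases had the same sign in both pairs, and their difference between pairs did not pass. Avil changed by -1.48 in the MC38 pair and -2.32 in the CT26 pair, Rn7s6 by -2.98 and -1.69, Rn7s1 by -2.68 and -1.62, Rpph1 by -2.33 and -1.08, and Rn7sk by -1.77 and -1.27 (limma adjusted p of the difference from 0.065 to 0.64).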

How the results depend on the processing

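Plain differences of the 15 largest rises and 15 largest decreases changed direction under 0 of the alternatives, but many lost their call. In the 30-library fit 15 rises and 11 decreases were called. These became 4 and 0 with a pseudocount of 0.1, 9 and 4 with no filter and 11 and 3 with median-ratio scaling. They were 9 and 3 without mitochondrial and haemoglobin genes, 6 and 3 with gene-wise spread, 14 and 4 with robust spread and 15 and 12 with the replicate block. In the 6-library fit the counts of higher and lower genes were 415 and 69. They were 0 and 0 with no filter, 0 and 1 with median-ratio scaling, 12 and 23 without mitochondrial and haemoglobin genes, 244 and 32 with all 30 libraries, 739 and 132 by adjusted p alone and 0 and 0 with gene-wise spread. A pseudocount of 0.1 gave 115 lower genes. Leaving out each library gave 134 to 716 higher and 61 to 91 lower. With median-ratio scaling and without mitochondrial and haemoglobin genes limma's prior became finite (3.46 and 6.86), and the share of calls that were higher went to 0% and 34.3%, against 85.7%.

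In the 30-library fit, with 244 higher and 32 lower, a pseudocount of 0.1 gave 54 and 6, no filter 144 higher, gene-wise spread 122 and 15, median-ratio scaling 13 lower and adjusted p alone 57 lower. Leaving out each library gave 6 to 574 higher and 8 to 49 lower.

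Relative to the leukocyte score, 0 genes were called higher. This became 4 with a pseudocount of 0.1, 11 with the score as a covariate and 0 to 5 without 1 library. In the 30-library fit it became 1 with a pseudocount of 0.1, 3 with no filter, 1 without mitochondrial and haemoglobin genes, 1 by adjusted p alone, 1 with the replicate block, 1 with robust spread, 4 with the covariate and 0 to 5 without 1 library. The 126 lower genes became 223 (pseudocount of 0.1), 9456 (30 libraries), 27 (replicate block), 49 (covariate), 0 (gene-wise) and 34 to 10961 without 1 library. As a covariate, the score turned Gzmf, Gzme and Car9 to 0.45, 0.12 and 0.70.

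Of the 30 genes, 12 differed between the pairs. This became 1 with no filter or robust spread, 6 without mitochondrial and haemoglobin genes, 5 with 30 libraries, 0 with gene-wise spread and 2 to 19 without 1 library. Replicate numbers did not pair the samples (correlations of -0.0949, -0.171 and 0.218): with the replicate block 415 higher and 69 lower genes were called in the 6-library fit, and 259 and 33 in the 30-library fit. The causes were not tested. TPM give no depth, so the counting error of low genes is unknown.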
